A study of Mus musculus with 10 samples.

Results

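The 35 genes described here are imprinted genes of the mouse, chosen by name for their roles in foetal growth. They were chosen with earlier results of these data known. All 35 names were found once each among the 55401 genes of the deposited table, and 12 of them are expressed mainly from the maternal allele, 22 from the paternal allele, and Gnas from both through different transcripts. They were measured by RNA-seq in limb muscle from foetuses of ICR mice at ED18.5, with 5 libraries in the GDM group and 5 in the control (CTR) group, written here as GDM1 to GDM5 and CTR1 to CTR5. GDM dams had received streptozotocin, which destroys the beta cells of the pancreas, at GD 6.5 and again at GD 12.5, while CTR dams were given the buffer in which it is dissolved. The labels give the genotype of every sample as WT and the material as whole limb muscle, a mixture of cells, and the methods give the foetuses as male. Since streptozotocin was given to the dam during pregnancy, raised glucose and exposure to the drug go together in the GDM group. The litter of each foetus is not given, so the p-values reflect variation among these samples rather than among dams.

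Imprinted genes are transcribed mainly from the allele of 1 parent, because DNA methylation laid down in the egg or the sperm marks control regions that are read differently on each chromosome. Many of them lie in clusters with a long non-coding RNA, and neighbours within a cluster often come from opposite alleles. Paternally expressed genes such as Igf2, Mest and Peg3 are known to favour foetal growth, whereas maternally expressed genes such as H19, Igf2r, Cdkn1c and Grb10 are known to limit it. In foetal muscle several of them, including Dlk1, H19 and Igf2, are strongly expressed and decline after birth. The libraries were not read by allele, so the parental origin is background and imprinting itself was not measured.

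Most of the imprinted genes that passed the test were higher in GDM muscle, on both parental sides. Of the 35 genes, 29 reached 1 FPKM (fragments scaled to transcript length and library size) in at least 5 libraries and were tested with limma on log2(FPKM + 1), with Benjamini-Hochberg adjustment over all 13363 genes tested. At an adjusted p under 0.05, 16 of the 29 were higher in GDM (55.2%), 2 were lower (6.9%) and 11 did not pass. Among all genes tested 35.1% were higher and 10.9% were lower. The median log2 fold change of the 29 was 0.32, and that of all genes tested was 0.15. Every GDM library lay above every CTR library in 15 of the 29 tested genes, against 27.2% of all genes, and below in 1, H19, against 7.43%. Fold changes on this scale understate the change of genes with low FPKM.

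The count of higher calls moved with the scaling of the libraries, among the imprinted genes and among all genes. Dividing the libraries by size factors, the median over genes of the ratio to the mean library (median ratio scaling), moves the median log2 fold change of all genes tested from 0.15 to 0, and moved the 29 imprinted genes tested by -0.19 to -0.11 each. After it, 12 of the 29 imprinted genes were higher (41.4%, against 19.2% of all genes) and 5 were lower (17.2%, against 19.4%). The median of the 29 was 0.13. The 12 that were still higher were Magel2, Peg10, Mest, Cdkn1c, Asb4, Grb10, Igf2r, Plagl1, Peg12, Usp29, Airn and Impact. The 5 lower genes were H19, Meg3, Rtl1, Zrsr1 and Peg13. Peg3, Zim1, Gnas and Ndn were then no longer past the threshold. Each log2 fold change below is from the values without this scaling.

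**Figure D1:**
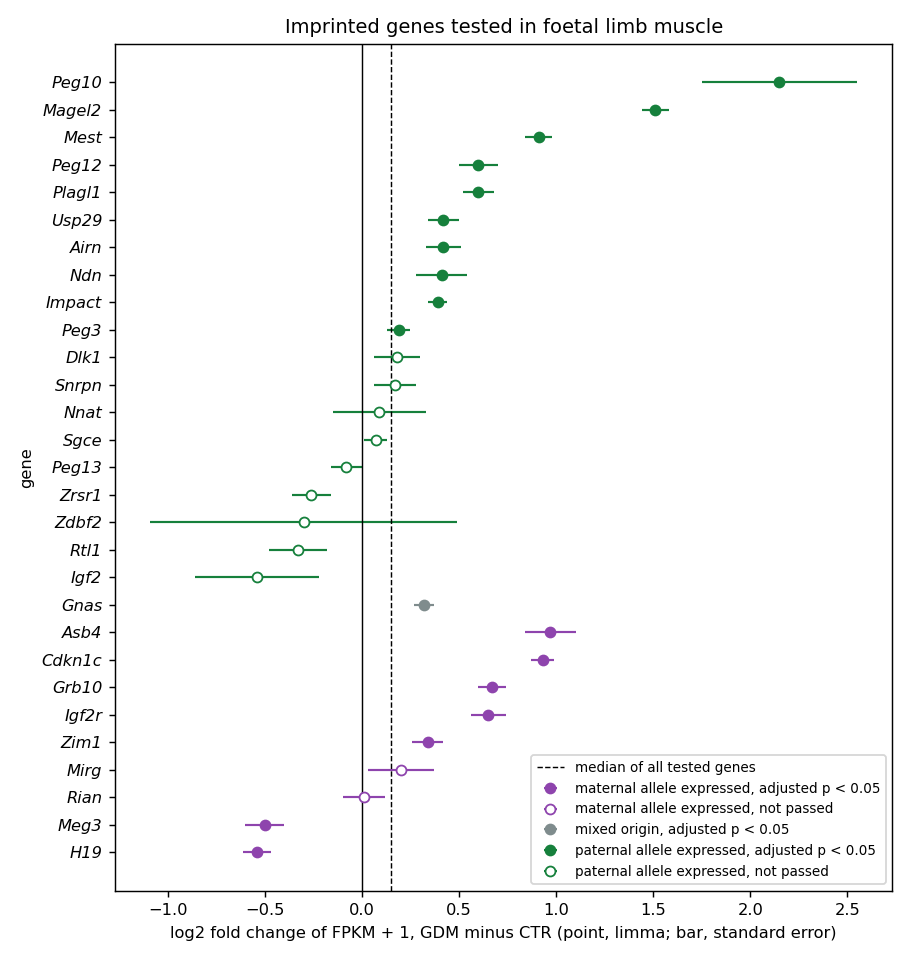
Log2 fold change (GDM minus CTR, FPKM + 1) of the 29 imprinted genes tested, with the standard error from limma as a bar, grouped by the allele that is mainly expressed. Filled points are at an adjusted p under 0.05, and the dashed line is the median of all genes tested, 0.15; Peg10 at 2.15 and H19 at -0.54 mark the ends.

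Maternally and paternally expressed genes did not part by direction. Of 12 maternally expressed genes 9 were tested, of which 5 were higher (Asb4, Cdkn1c, Grb10, Igf2r and Zim1) and 2 were lower (H19 and Meg3), at a median log2 fold change of 0.34. Of 22 paternally expressed genes 19 were tested, of which 10 were higher and 0 were lower, with a median of 0.19, or 0.29 without GDM2. The shares higher were 55.6% and 52.6%, against 35.1% of all genes, and the shares lower 22.2% and 0%, against 10.9%. After median ratio scaling the medians were 0.15 and 0.00. Then 4 maternally (44.4%) and 8 paternally expressed genes (42.1%) were higher, against 19.2% of all genes. Lower were 2 (22.2%) and 3 (15.8%), against 19.4%. Genes known to favour growth (Mest, Plagl1) and genes known to limit it (Cdkn1c, Grb10, Igf2r) were higher in the same libraries.

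Limb muscle holds several cell types, and their markers also differed between the groups. Summed FPKM of 6 muscle fibre markers was 16030 to 22150 in GDM and 27450 to 32970 in CTR libraries, with 5 of the 6 lower and Myh3, the embryonic myosin heavy chain, higher (log2 fold change 1.66). For 4 muscle progenitor markers the sums were 85.7 to 104.8 and 53.5 to 71.7, with 3 of 4 higher. For 4 fibroblast markers they were 1350 to 1774 and 667.5 to 962.4, with 3 of 4 higher. For 4 fat cell markers they were 2.37 to 12.9 and 167.3 to 1391, all 4 lower. Chondrocyte markers summed to 13.8 to 26.6 and 4.28 to 9.63, with 3 of 3 tested higher, and Matn1, the matrix protein of cartilage, was listed at 0 in 1 GDM and 4 CTR libraries. Endothelial and neutrophil markers had 2 genes lower each. Schwann cell markers had 1 of 3 lower, with sums of 11.9 to 15.5 and 38.65 to 175.6. None of the red cell or macrophage markers passed. After median ratio scaling 3 of 4 endothelial, 3 of 3 neutrophil, 2 of 3 Schwann cell and 2 of 3 macrophage markers were lower. Higher were then 2 of 4 progenitor and 2 of 4 fibroblast markers. No other marker was at 0 in any library. The part of these shifts in the values below was not tested, and in bulk samples fewer cells of a type and less RNA per cell cannot be told apart.

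Library depth, estimated from the lowest values of single-transcript genes, was 17.5 to 20.8 M fragments in GDM and 14.4 to 16.5 M in CTR libraries, so depth and group cannot be told apart. Mitochondrially encoded genes took 9.43 to 12.3% of the summed FPKM in GDM and 16.3 to 19% in CTR libraries. Within groups the median coefficient of variation of the imprinted genes tested was 7.69% in GDM and 11.6% in CTR libraries, against 11.2% and 13.8% over all genes tested. This comparison was not matched for FPKM level. Some imprinted genes varied widely, with Igf2 at 44.7% in GDM, Peg10 at 49.6% in CTR, and Zdbf2 at 108% in GDM and 69.7% in CTR libraries.

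The H19 and Igf2 cluster lies on chromosome 7 of GRCm38, where H19 runs from 142575529 to 142578143 and Igf2 from 142650766 to 142666816, both on the minus strand. H19 is a non-coding RNA of the maternal chromosome, and one of its exons carries miR-675. Both mature forms are shown because H19 had the highest FPKM of the 35 genes and was the tested gene with every GDM library below every CTR library. Their seeds, bases 2 to 8, are in capitals and differ from each other.

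mmu-miR-675-5p: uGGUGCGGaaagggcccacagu

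mmu-miR-675-3p: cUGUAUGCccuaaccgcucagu

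H19 stood at 2067, 2372, 2367, 2483 and 2298 FPKM in GDM1 to GDM5 and at 3439, 3090, 3637, 3352 and 3364 FPKM in CTR1 to CTR5. All GDM libraries lay below all CTR libraries. The means were 2317 ± 155 and 3377 ± 197 FPKM (SD, n = 5 each), with a log2 fold change of -0.54 (standard error, SE, 0.07, limma adjusted p = 0.00015). After quantile normalization H19 had a log2 fold change of -0.22 and did not pass (limma adjusted p = 0.079). Of the 6 fibre markers 5 were lower, as H19 was, and Myh3 was higher (log2 fold change 1.66). Myh8 had a log2 fold change of -0.87, Acta1 of -0.66, Tnnt3 of -0.56, and Ckm and Mylpf of -0.52. Whether the H19 values went with the amount of fibre RNA was not tested. The libraries were made from poly(A) RNA, so mature miR-675 was not measured.

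Igf2, the foetal insulin-like growth factor of the paternal chromosome, shares its locus with another gene model that held FPKM in some GDM libraries. It stood at 402.1, 1322, 655.3, 1361 and 1339 FPKM in GDM1 to GDM5 and at 1328, 1218, 1357, 1374 and 1362 FPKM in CTR1 to CTR5. GDM1 and GDM3 were low and the other 3 GDM libraries lay within the CTR range. The log2 fold change was -0.54 (SE 0.32, limma adjusted p = 0.19), and 0.02 (limma adjusted p = 0.88) without GDM1 and GDM3, a choice made after seeing the data.

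Gm49394, a protein-coding model of the same strand that spans Igf2 from 142650769 to 142669942, held 1061 FPKM in GDM1, 356.8 in GDM3 and 54.4 in GDM4, and at most 0.06 in the other libraries. The sum of the 2 genes was 1463, 1322, 1012, 1416 and 1339 FPKM in GDM1 to GDM5 and 1218 to 1374 FPKM in CTR libraries. The ranges overlapped (two-sided exact permutation test, p = 0.88, n = 5 each). Of the 5 exons of Gm49394, 3 are identical to exons of Igf2, so fragments of these exons cannot be assigned to one gene or the other. The low Igf2 value of GDM1 was not matched by a low sum. The sum of GDM3, 1012 FPKM, stayed below all CTR libraries.

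The opposite strand of Igf2 carries Igf2os, an antisense RNA. Igf2os stood at 17.8, 23.2, 19.3, 18.2 and 19.9 FPKM in GDM1 to GDM5 and at 6.82, 9.94, 12.2, 6.18 and 5.78 FPKM in CTR1 to CTR5, so that all GDM libraries lay above all CTR libraries (log2 fold change 1.22, SE 0.18, limma adjusted p = 0.00038). The kit marks strand, but whether the counting used it is not stated, so reads of Igf2os and Igf2 may not be fully separated. Mir483, the precursor of a microRNA inside Igf2, was at 13.04 ± 1.05 and 12.69 ± 2.43 FPKM (SD, n = 5 each) and did not pass (log2 fold change 0.05). Nctc1, a muscle-expressed non-coding RNA on the far side of H19 (142544609 to 142558596), was below the filter, at 0.0632 FPKM in the median GDM library and 0.407 in the median CTR library, with all GDM libraries below all CTR libraries (two-sided exact permutation test, p = 0.0079, n = 5 each).

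**Figure D2:**
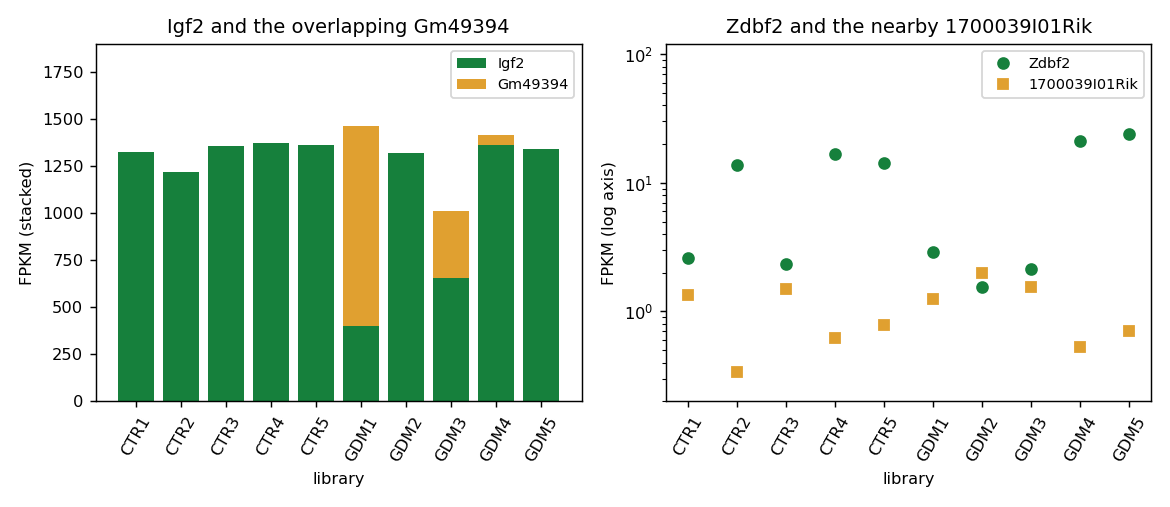
Left, FPKM of Igf2 with that of the overlapping gene Gm49394 stacked on it, for each library; right, FPKM of Zdbf2 and of the nearby 1700039I01Rik on a log axis. Igf2 was at 402.1 FPKM in GDM1 where Gm49394 was at 1061, and Zdbf2 fell into libraries under 3 and above 13 FPKM in both groups.

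Igf2r encodes the receptor that carries IGF2 to lysosomes and so removes it, and is expressed from the maternal allele. Airn, the antisense RNA that silences Igf2r on the paternal chromosome, starts within Igf2r on chromosome 17, where Igf2r runs from 12682406 to 12769664 on the minus strand and Airn from 12741311 to 12860136 on the plus strand. Igf2r stood at 56.8, 56.2, 52.1, 51.8 and 59.0 FPKM in GDM1 to GDM5 and at 37.8, 35.6, 40.5, 31.9 and 28.9 FPKM in CTR1 to CTR5. The groups did not overlap (log2 fold change 0.65, SE 0.09, limma adjusted p = 0.00025). Airn was also higher in every GDM library, at 5.72 ± 0.68 FPKM (range 5.15 to 6.81) against 4.02 ± 0.47 FPKM (range 3.24 to 4.41; SD, n = 5 each), with a log2 fold change of 0.42 (limma adjusted p = 0.0032). Whether reads were counted by strand is not stated, so those from the stretch where the 2 genes overlap may not be fully separated. Gm7162 and Gm16574, pseudogenes inside Airn on either strand, had log2 fold changes of 0.77 and 0.57, and both passed.

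The start regions of the pair are shown because the 2 transcripts, which come from opposite parental chromosomes, both had higher values, within that limit on strand. They are RefSeq windows of GRCm38.p6, from 250 bases before to 50 after the start, with each CG, the dinucleotide that DNA methylation marks, in capitals. The Igf2r window holds 34 CG and the Airn window 3, and 92.3% and 23.3% of the 32851 windows in the RefSeq table hold fewer. At least 1 CG is present in 94.6% of all windows. RefSeq windows were found for 28 of the imprinted genes, and the median of their 43 windows was 13 CG, against 7 over all windows.

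Igf2r chr17:12769657-12769956 (- strand): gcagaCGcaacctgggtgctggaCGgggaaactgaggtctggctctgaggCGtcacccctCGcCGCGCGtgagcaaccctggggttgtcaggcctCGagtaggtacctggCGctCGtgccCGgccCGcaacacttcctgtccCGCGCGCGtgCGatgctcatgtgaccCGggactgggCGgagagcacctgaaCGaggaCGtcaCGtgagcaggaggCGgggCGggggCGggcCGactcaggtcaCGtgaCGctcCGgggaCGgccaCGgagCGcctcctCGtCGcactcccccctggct

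Airn chr17:12741061-12741360 (+ strand): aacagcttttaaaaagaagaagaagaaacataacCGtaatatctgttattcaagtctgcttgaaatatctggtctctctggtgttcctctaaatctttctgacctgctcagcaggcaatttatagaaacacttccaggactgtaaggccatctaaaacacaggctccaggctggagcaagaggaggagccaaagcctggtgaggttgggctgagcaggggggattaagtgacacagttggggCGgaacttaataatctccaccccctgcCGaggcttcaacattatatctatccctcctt

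Cdkn1c had the smallest adjusted p of the maternally expressed genes. It encodes p57, an inhibitor of cyclin-dependent kinases that takes cells out of division and is needed for muscle differentiation, and lies on chromosome 7 from 143458339 to 143461050. It stood at 681.6, 717.0, 718.7, 731.9 and 698.7 FPKM in GDM1 to GDM5 and at 357.6, 366.2, 405.4, 334.7 and 401.5 FPKM in CTR1 to CTR5. The groups were far apart, at 709.6 ± 19.6 and 373.1 ± 30.1 FPKM (SD, n = 5 each), a log2 fold change of 0.93 (SE 0.06, limma adjusted p = 1.3e-05). Gm44732, an antisense RNA inside Cdkn1c, was at 2.74 to 3.03 FPKM in GDM and 0.641 to 1.65 FPKM in CTR libraries (log2 fold change 1.00). It passed the filter of 1 FPKM through the GDM libraries, since the median CTR library was at 0.879 FPKM. The same limit on strand holds for it.

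The other genes of the Cdkn1c domain lay below the filter on low values. Kcnq1ot1, the paternal non-coding RNA that silences the domain, was at 0.285, 0.276, 0.309, 0.298 and 0.267 FPKM in GDM1 to GDM5 and at 0.233, 0.187, 0.178, 0.204 and 0.194 FPKM in CTR1 to CTR5. All GDM libraries were above all CTR libraries (two-sided exact permutation test, p = 0.0079, the smallest that 5 against 5 can give). Phlda2, a brake on placental growth, was at most 0.20 FPKM in any library. Ascl2, a transcription factor of the placenta, was at most 0.313 FPKM, and Slc22a18, a transporter, at most 0.595 FPKM. All 3 are best known from the placenta or from epithelia, and their groups overlapped, with p of 0.048, 0.032 and 0.79 in that order (two-sided exact permutation tests). Kcnq1, the channel gene in which Kcnq1ot1 lies, had a log2 fold change of -0.19 and did not pass (limma adjusted p = 0.057).

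**Figure D3:**
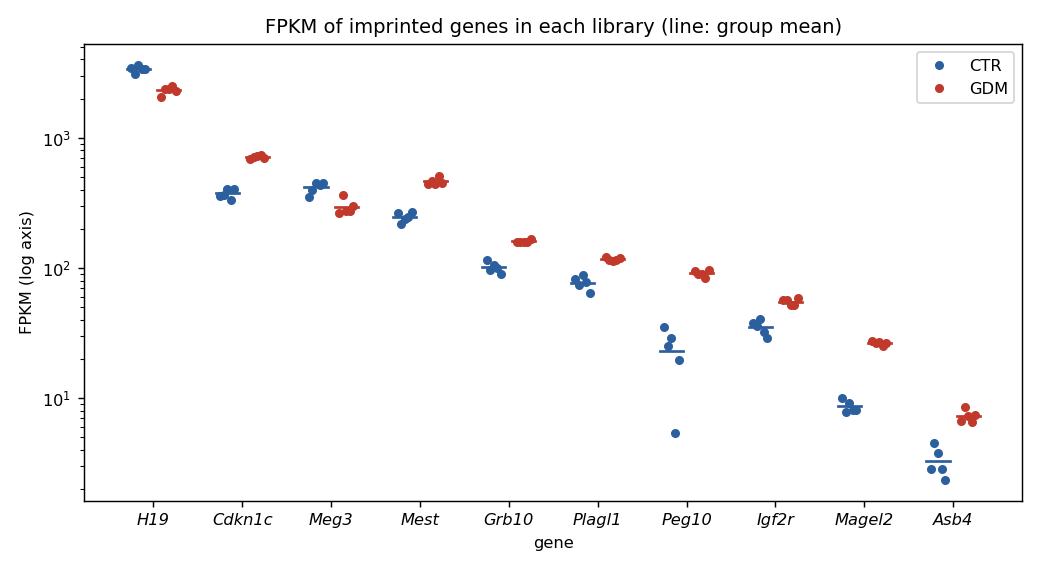
FPKM (log axis) of 10 imprinted genes in each of the 5 CTR and 5 GDM libraries, with a line at the group mean. Apart from Meg3, where GDM2 at 363.4 FPKM lies within the CTR range, the groups do not overlap, and the CTR libraries of Peg10 spread from 5.35 to 35.3 FPKM.

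The cluster on chromosome 12 between Dlk1 and Dio3 had no higher call. Of its 5 tested genes 0 were higher (against 35.1% of all genes) and 1, Meg3, was lower (20.0% against 10.9%). The median log2 fold change was 0.01. After median ratio scaling 0 were higher (against 19.2% of all genes) and 2, Meg3 and Rtl1, were lower (40.0% against 19.4%). The median was then -0.18. Shares of 5 genes are coarse. H19 with Igf2, and Nnat, Zrsr1, Peg13 and Zdbf2, had no higher call either. Meg3, Rian and Mirg are non-coding RNAs of the maternal chromosome that carry clusters of microRNAs and small nucleolar RNAs, and Dlk1, Rtl1 and Dio3 are protein-coding genes of the paternal chromosome.

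Meg3 stood at 262.1, 363.4, 275.9, 274.9 and 297.6 FPKM in GDM1 to GDM5 and at 353.3, 397.6, 451.1, 434.8 and 446.7 FPKM in CTR1 to CTR5. GDM2 overlapped with the CTR group, and the other 4 lay below it. The log2 fold change was -0.50 (SE 0.10, limma adjusted p = 0.0025). Gm27300, a short RNA model inside Meg3, held 371.4, 287.0, 469.6 and 609.5 FPKM in GDM2, GDM5, CTR4 and CTR5 and at most 0.13 FPKM elsewhere, in both groups.

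Rian stood at 65.5, 97.6, 79.6, 84.8 and 84.8 FPKM in GDM1 to GDM5 and at 73.9, 80.1, 96.7, 73.9 and 84.6 FPKM in CTR1 to CTR5. Mirg stood at 31.8, 63.1, 44.0, 39.8 and 40.8 FPKM in GDM1 to GDM5 and at 29.9, 42.1, 44.9, 33.2 and 37.9 FPKM in CTR1 to CTR5. Neither passed, with log2 fold changes of 0.01 (95% interval -0.24 to 0.25) and 0.20 (-0.18 to 0.58). Of 11 microRNA precursor models inside Mirg, 2 were lower, Mir453 (log2 fold change -1.13) and Mir3072 (-0.52), 0 were higher and 9 did not pass. In poly(A) libraries such values count fragments of the host RNA and not mature microRNAs.

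Dlk1, a membrane protein of the Notch ligand type that is made by foetal muscle and fibroblasts, stood at 262.0, 196.5, 300.7, 306.6 and 300.0 FPKM in GDM1 to GDM5 and at 227.9, 241.5, 268.5, 245.4 and 212.8 FPKM in CTR1 to CTR5. GDM2 was the lowest of all libraries, and 3 GDM libraries lay above the CTR range. Dlk1 did not pass (log2 fold change 0.18, limma adjusted p = 0.27), whereas without GDM2 it did (0.29, limma adjusted p = 0.019). Dio3, the deiodinase that inactivates thyroid hormone, was low but separated, at 0.582, 0.189, 0.296, 0.533 and 0.309 FPKM in GDM1 to GDM5 and at 0.0289, 0.0341 and 0.108 FPKM in CTR1 to CTR3, and it was listed at 0 in CTR4 and CTR5 (two-sided exact permutation test, p = 0.0079, n = 5 each).

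GDM2 stood apart within this cluster. Among the 5 GDM libraries it was the highest for Meg3, Rian and Mirg and the lowest for Dlk1, Rtl1 and Dio3, so the maternally and the paternally expressed genes were at opposite ends in the same library. GDM1 was the lowest GDM library for Meg3, Rian and Mirg, with 262.1, 65.5 and 31.8 FPKM. In the CTR group CTR3 was the highest library for all 6 genes. This pattern was noticed in the values and was not tested.

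Rtl1, a retrotransposon-derived gene needed in placenta and muscle, was at 51.9 ± 10 FPKM (range 39.0 to 62.5) in GDM and 65.2 ± 11 FPKM (range 54.2 to 80.5) in CTR libraries (SD, n = 5 each). It did not pass (log2 fold change -0.33, limma adjusted p = 0.097), but did after median ratio scaling (-0.52, limma adjusted p = 0.028). The strand opposite to Rtl1 carries microRNAs of the maternal chromosome, and 11 mature forms in the RefSeq table lie there. Each of the 11 had 1 perfect complement in the Rtl1 transcript of GENCODE vM21, which is 6358 bases long, and their 11 seeds all differ. Maternal microRNAs are known to cut Rtl1 RNA through such complete pairing. Mature microRNAs were not measured here, and the 3 pairs below show how the 2 strands face each other, with the seed in capitals in the microRNA and its complement in capitals in the site. They lie at bases 2642 to 2663 for miR-127-3p, 3749 to 3770 for miR-433-3p and 199 to 220 for miR-136-5p, counted from the start of the transcript.

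mmu-miR-127-3p: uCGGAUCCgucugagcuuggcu

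Rtl1 site for miR-127-3p: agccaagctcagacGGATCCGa

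mmu-miR-433-3p: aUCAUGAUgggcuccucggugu

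Rtl1 site for miR-433-3p: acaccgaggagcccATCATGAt

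mmu-miR-136-5p: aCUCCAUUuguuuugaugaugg

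Rtl1 site for miR-136-5p: ccatcatcaaaacaAATGGAGt

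Grb10 encodes an adaptor that dampens signalling from the insulin and IGF1 receptors, and limits growth of foetal muscle. It lies on chromosome 11 from 11930508 to 12038683 and stood at 157.7, 159.4, 158.8, 159.4 and 165.3 FPKM in GDM1 to GDM5 and at 114.4, 95.6, 104.4, 99.4 and 90.4 FPKM in CTR1 to CTR5. All GDM libraries lay above all CTR libraries, and they were close to each other. The log2 fold change was 0.67 (SE 0.07, limma adjusted p = 4.4e-05).

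Plagl1, a paternally expressed zinc finger factor known in mice to raise the expression of other imprinted genes including Igf2, H19 and Cdkn1c, moved by a similar amount. It stood at 120.4, 114.8, 113.8, 116.0 and 118.1 FPKM in GDM1 to GDM5 and at 81.6, 74.2, 87.5, 77.6 and 64.1 FPKM in CTR1 to CTR5. The groups did not overlap (log2 fold change 0.60, SE 0.08, limma adjusted p = 0.00019). Of those 3 genes, Cdkn1c was higher, H19 lower, and Igf2 did not pass.

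Mest, a paternally expressed hydrolase-like protein of mesoderm, stood at 442.4, 469.0, 441.3, 511.5 and 452.3 FPKM in GDM1 to GDM5 and at 264.7, 216.2, 237.8, 246.6 and 269.5 FPKM in CTR1 to CTR5. The lowest GDM library, GDM3, lay far above the highest CTR library, CTR5. The means were 463.3 ± 29.2 and 247.0 ± 21.5 FPKM (SD, n = 5 each), a log2 fold change of 0.91 (SE 0.07, limma adjusted p = 2.2e-05). Copg2, a coat protein gene that overlaps the end of Mest on the other strand, had a log2 fold change of 0.30 and did not pass (limma adjusted p = 0.057). An intron of Mest carries miR-335, whose mature forms are shown with the seed in capitals because this host RNA rose in all GDM libraries; the microRNA itself was not measured.

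mmu-miR-335-5p: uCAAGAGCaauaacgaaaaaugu

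mmu-miR-335-3p: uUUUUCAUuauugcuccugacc

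Peg10 had the largest log2 fold change of the 29 genes tested. It is a retrotransposon-derived gene of the paternal chromosome, on chromosome 6 from 4747306 to 4760517, and stood at 94.0, 89.8, 89.9, 83.5 and 96.0 FPKM in GDM1 to GDM5. In CTR1 to CTR5 it stood at 35.3, 25.3, 29.1, 5.35 and 19.6 FPKM. The GDM libraries were close together and the CTR libraries were spread, with CTR4 lowest. The log2 fold change was 2.15 (SE 0.40, limma adjusted p = 0.0015).

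Sgce, which shares the start region of Peg10 in the opposite direction and encodes epsilon-sarcoglycan of the muscle membrane, was at 4.91 ± 0.29 and 4.64 ± 0.40 FPKM (SD, n = 5 each) and did not pass (log2 fold change 0.07, 95% interval -0.07 to 0.21). Asb4, a maternally expressed gene of the same cluster that encodes a subunit of a ubiquitin ligase, stood at 6.63, 8.54, 7.23, 6.51 and 7.48 FPKM in GDM1 to GDM5 and at 2.87, 4.49, 3.79, 2.86 and 2.35 FPKM in CTR1 to CTR5. The groups did not overlap (log2 fold change 0.97, SE 0.13, limma adjusted p = 0.00023). Peg10, Asb4 and Sgce thus ranged from a large rise to no call. Of 4 other genes tested within 250 kb of them, in neither list of imprinted genes, 2 were higher and 2 lower. Their log2 fold changes ran from -2.35 (Pdk4) to 0.75 (Col1a2).

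Peg3, Usp29 and Zim1 form a cluster at the start of chromosome 7. Peg3, a paternally expressed zinc finger factor of muscle progenitors and maternal behaviour, stood at 97.2, 86.8, 87.9, 93.0 and 97.2 FPKM in GDM1 to GDM5 and at 81.7, 85.4, 86.6, 77.8 and 74.2 FPKM in CTR1 to CTR5. The groups met almost without a gap, with 86.8 FPKM in GDM2 and 86.6 FPKM in CTR3. Its log2 fold change was 0.19 (limma adjusted p = 0.032), and this call did not last: the adjusted p ran from 0.019 to 0.99 over 17 alternatives and passed in 6, and after median ratio scaling the log2 fold change was -0.0016.

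Usp29, a paternally expressed member of the ubiquitin-specific proteases, was higher in every GDM library at 3.45 ± 0.13 against 2.35 ± 0.40 FPKM (SD, n = 5 each; log2 fold change 0.42, limma adjusted p = 0.0023). Zim1, a maternally expressed zinc finger gene, was at 64.1 ± 5.64 and 50.6 ± 4.65 FPKM (log2 fold change 0.34, limma adjusted p = 0.0062), and at 0.15 (limma adjusted p = 0.19) after median ratio scaling. Peg3 and Usp29 start head to head, and their RefSeq windows share 263 bases from 6730370 to 6730632. The Usp29 window is shown because it holds the start of both genes, with 17 CG in capitals, and 68.6% of all windows hold fewer.

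Usp29 chr7:6730333-6730632 (+ strand): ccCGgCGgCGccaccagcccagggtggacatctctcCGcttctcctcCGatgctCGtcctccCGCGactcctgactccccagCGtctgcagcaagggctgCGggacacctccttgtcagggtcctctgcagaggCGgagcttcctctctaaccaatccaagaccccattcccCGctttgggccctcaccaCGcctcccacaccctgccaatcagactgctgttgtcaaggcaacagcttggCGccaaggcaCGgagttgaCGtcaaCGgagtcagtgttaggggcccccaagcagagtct

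The paternally expressed genes of the Prader-Willi region on chromosome 7 differed in size of change. Magel2, which encodes a MAGE protein that regulates ubiquitin ligases and the sorting of membrane proteins, stood at 27.6, 26.7, 26.9, 24.9 and 26.4 FPKM in GDM1 to GDM5 and at 10.1, 7.81, 9.24, 8.06 and 8.16 FPKM in CTR1 to CTR5. The 2 groups were 3.06-fold apart in mean FPKM with no overlap, and the log2 fold change of 1.51 (SE 0.07, limma adjusted p = 1.3e-06) had the smallest adjusted p of the 29 genes. Peg12, an inhibitor of the kinase GSK3, stood at 4.74, 5.23, 4.82, 5.61 and 4.22 FPKM in GDM1 to GDM5 and at 3.11, 2.40, 3.64, 2.62 and 2.82 FPKM in CTR1 to CTR5 (log2 fold change 0.60, limma adjusted p = 0.0006).

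Ndn, which encodes necdin, a MAGE protein that slows division and aids myoblast differentiation, stood at 87.9, 131.1, 126.4, 117.7 and 96.7 FPKM in GDM1 to GDM5 and at 79.4, 71.7, 86.0, 99.6 and 81.1 FPKM in CTR1 to CTR5. CTR4 lay above GDM1 and GDM5, so the groups overlapped. Its log2 fold change was 0.41 (limma adjusted p = 0.021), with an adjusted p of 0.051 without GDM2, 0.050 without GDM3 and 0.20 after median ratio scaling. Snrpn, a splicing protein of the same region, was at 7.10 ± 0.55 and 6.28 ± 1.26 FPKM (SD, n = 5 each) and did not pass (log2 fold change 0.17). Ndn and Magel2 are neighbours, and the values without GDM2 and GDM3 bear only on Ndn, since Magel2 passed in all 17 alternatives.

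Gnas, the locus of the stimulatory G protein subunit with transcripts from either allele, stood at 243.9, 250.3, 250.8, 271.2 and 258.4 FPKM in GDM1 to GDM5 and at 204.9, 197.0, 209.4, 208.1 and 200.6 FPKM in CTR1 to CTR5. The groups did not overlap (log2 fold change 0.32, SE 0.05, limma adjusted p = 0.00058), but after median ratio scaling Gnas was at 0.13 and did not pass (limma adjusted p = 0.096). The table gives 1 value for the locus, so its maternal and paternal transcripts were not separated.

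Of the remaining paternally expressed genes 1 passed the test. Impact, a regulator of translation, was at 9.33 ± 0.32 FPKM (range 8.94 to 9.79) in GDM and 6.88 ± 0.13 FPKM (range 6.69 to 6.99) in CTR libraries (SD, n = 5 each; log2 fold change 0.39, limma adjusted p = 9.8e-05). Nnat, a small membrane protein best known from brain and fat, was at 4.89 ± 1.49 and 4.65 ± 1.77 FPKM and did not pass. Zrsr1, a splicing factor gene, had a log2 fold change of -0.26 (limma adjusted p = 0.063), with an adjusted p of 0.015 after median ratio scaling and 0.029 without CTR5. Peg13, a non-coding RNA, had -0.08, and -0.23 with an adjusted p of 0.030 (limma) after that scaling. Nap1l5, related to nucleosome assembly proteins, was at most 0.454 FPKM and lay below the filter.

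Zdbf2, a paternally expressed growth gene on chromosome 1, fell into high and low libraries within both groups. It stood at 2.92, 1.54, 2.14, 21.3 and 23.8 FPKM in GDM1 to GDM5 and at 2.59, 13.9, 2.36, 16.9 and 14.3 FPKM in CTR1 to CTR5. The split ran across the groups (log2 fold change -0.30, SE 0.79, limma adjusted p = 0.78). The gene model 1700039I01Rik nearby on chromosome 1 was at 1.24 to 1.98 FPKM in the 5 libraries where Zdbf2 was low and at 0.336 to 0.783 FPKM in the 5 where it was high. A cause of the split was not tested.

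Ratios of a maternally to a paternally expressed gene in the same library are nearly free of library scaling. They were computed for 5 pairs as differences of log2(FPKM + 1) and compared by two-sided exact permutation tests, with Benjamini-Hochberg adjustment over the 5 pairs. Asb4 to Peg10 was lower in GDM by 1.18 on the log2 scale (-3.47 ± 0.14 against -2.30 ± 0.95, SD, n = 5 each; exact p = 0.0079, adjusted p = 0.040), lower in all GDM libraries. The gap was narrow, with GDM2 at -3.25 and CTR1 at -3.23. With a pseudocount of 0.1 GDM2 lies above CTR1, so the separation depends on the pseudocount. Without CTR4 the difference was -0.78. Zim1 to Peg3 was higher in GDM by 0.15 (-0.52 ± 0.11 against -0.67 ± 0.05; exact p = 0.016, adjusted p = 0.040), with a slight overlap.

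Meg3 to Dlk1 was lower in GDM by 0.68 on the log2 scale, at 0.12 ± 0.43 against 0.80 ± 0.17 (SD, n = 5 each; exact permutation test, p = 0.040, adjusted p = 0.067). It was 0.00, 0.88, -0.12, -0.16 and -0.01 in GDM1 to GDM5 and 0.63, 0.72, 0.75, 0.82 and 1.07 in CTR1 to CTR5. GDM2 lay inside the CTR range and the other 4 below it. Leaving out GDM1, GDM3, GDM4 or GDM5 gave an exact p of 0.056, and leaving out GDM2 gave -0.87 with an exact p of 0.0079. Igf2r to Airn was 0.23 higher in GDM (exact p = 0.15, adjusted p = 0.19), and 0.35 higher without CTR3 (exact p = 0.016), with the limit on strand given above.

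H19 to Igf2 did not differ beyond its spread, with a difference of -0.01 (exact permutation test, p = 0.97, n = 5 each), but GDM1 and GDM3 were at 2.36 and 1.85 and the other GDM libraries at 0.78 to 0.87, against 1.29 to 1.42 in CTR libraries. With the FPKM of Gm49394 added to Igf2, a choice made after seeing the data, the ratio was 0.50, 0.84, 1.22, 0.81 and 0.78 in GDM1 to GDM5, all below all CTR libraries. The difference was then -0.51 (exact permutation test, p = 0.0079).

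**Figure D4:**
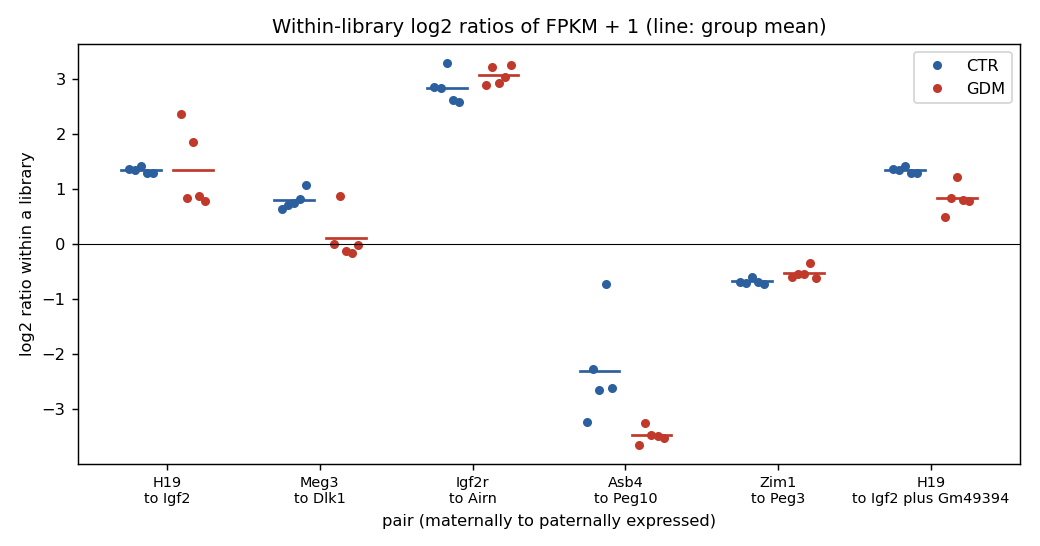
Log2 ratio of a maternally to a paternally expressed gene within each library, on FPKM + 1, for 5 pairs and for H19 to Igf2 with Gm49394 added, in 5 CTR and 5 GDM libraries with a line at the mean. Asb4 to Peg10 is lower in all GDM libraries (-3.47 against -2.30 on average), narrowly so for GDM2 (-3.25) beside CTR1 (-3.23). GDM1 and GDM3 lie above the CTR libraries in H19 to Igf2 (2.36 and 1.85) and below them once Gm49394 is added (0.50 and 1.22).

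Other imprinted genes of the mouse, from a list of 36 that holds none of the 35, were near all genes in their share of higher calls before median ratio scaling. The 2 lists were not compared by a test. Of 25 tested, 9 were higher (36.0%, against 35.1% of all genes), 2 were lower (8.0% against 10.9%) and 14 did not pass. The median log2 fold change was 0.12. After median ratio scaling 2 were higher (8.0%, against 19.2% of all genes) and 6 lower (24.0% against 19.4%). Klf14, a transcription factor near Mest, was at 7.63 and 4.88 FPKM on average (log2 fold change 0.56). Ddc, the decarboxylase next to Grb10, had 0.59 and Osbpl5, a lipid transfer protein of the Cdkn1c domain, 0.27. Cdh15, the cadherin of muscle progenitors, had 0.41 and is also among the progenitor markers, as Dcn is among those of fibroblasts.

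Genes close to the clusters that are in neither list were near the background. Within 250 kb there were 438 such genes, of which 92 were tested. Of these, 33 were higher (35.9%, against 35.1% of all genes) and 15 were lower (16.3% against 10.9%). The median log2 fold change was 0.15. Around Mest 5 of 7 were higher and 0 lower, whereas around H19 and Igf2 2 of 8 were higher and 4 lower. Around Magel2, Ndn, Peg12 and Snrpn only 2 of 65 were tested, both processed pseudogenes, and neither passed. Near Dlk1 and Dio3 1 of 24 was higher (4.17%) and 4 were lower (16.7%). Of these 24, 19 are microRNA models of the cluster itself, and the pooled shares above include them.

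Of 20 genes of the IGF axis, 16 were tested, 8 were higher (50.0%, against 35.1% of all genes) and 2 were lower (12.5% against 10.9%), at a median log2 fold change of 0.34. After median ratio scaling 5 were higher (31.2%, against 19.2% of all genes) and 2 lower (12.5% against 19.4%), at a median of 0.15. The RNA-binding proteins Igf2bp1 and Igf2bp2, which bind Igf2 and H19 RNA, had 1.16 and 1.04, the binding protein Igfbp2 had 1.28, and Stc1, an inhibitor of the protease PAPP-A, had 0.82. Igf1 itself had 0.36 and Igf1r, the receptor for both IGFs, had 0.48. The 2 lower genes were the binding proteins Igfbp7 (-0.75, limma adjusted p = 0.0019) and Igfbp6 (-0.70, limma adjusted p = 0.025).

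Of 19 factors that set, keep or read DNA methylation at imprinted regions, 15 were tested. Of these, 8 were higher (53.3%, against 35.1% of all genes) and 1 was lower (6.67% against 10.9%), with a median of 0.31. Trim28, the corepressor that binds methylated imprinted regions through zinc finger proteins, had a log2 fold change of 0.64 at 54.5 and 34.6 FPKM on average. Uhrf1 and Dnmt1, which copy methylation at replication and are higher in dividing cells, had 1.07 and 0.61. Tet2, which oxidises methylated cytosine, had -0.43. With median ratio scaling 5 of the 15 were higher (33.3%, against 19.2% of all genes) and 1 was lower (6.67% against 19.4%). The median was then 0.14. DNA methylation was not measured in these samples.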

How the data were processed

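Per the labels, poly(A) RNA of foetal limb muscle was sequenced from 5 GDM and 5 CTR samples. The deposited values are FPKM per gene and library, which the authors made with HISAT2 2.0.4 and StringTie 1.3.4d on mm10; edgeR and DESeq2 are listed in the submitters' notes with no stated use. The authors' own columns of fold change, log2 fold change (deposited as log2 of the former), p-value and q-value were not used. FPKM is relative to the summed library, so a shift in abundant RNAs moves other genes. Values listed at 0.0001 were read as 0 in the text. Of the 55401 genes, 55141 (99.53%) matched GENCODE vM21, the source of GRCm38 coordinates; promoters and microRNAs are from RefSeq (GRCm38.p6).

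The test had been planned for either unit, and since the table holds FPKM, limma 3.58.1 (trend, robust) in R 4.3.3 was fitted to log2(FPKM + 1) for genes reaching 1 FPKM in 5 or more libraries, comparing GDM with CTR without covariates, and adjusted by Benjamini-Hochberg over 13363 genes. Genes below this filter and ratios were compared by two-sided exact permutation tests. Python 3.11.15 with pandas 2.3.3, numpy 2.4.6, scipy 1.17.1 and matplotlib 3.10.9 was used for counts, tests and figures. The fit was tested on simulated data. The settings also tried were no filter on low values, a pseudocount of 0.1, the combination, median ratio scaling, quantile normalization, scaling without mitochondrially encoded genes, a replicate block, and each library left out in turn; the sum of Igf2 and Gm49394 and leaving out both GDM1 and GDM3 were chosen after seeing the data. Depth is not given and was estimated, so counting intervals are not given.

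The imprinted genes, the other lists and the cell type markers were chosen with earlier results of these data known. Per-library values are given for 16 genes fixed by name and for other imprinted genes past the test with a log2 fold change of at least 0.5 in size, and of the other lists up to 4 genes with the smallest adjusted p are named; genes named beyond this (Gm49394, Igf2os, Nctc1, Dio3, Zdbf2 and other models beside an imprinted gene, Igf1, Igf1r and further list members) were chosen after their values were seen.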

Additional observations from a re-analysis of the deposited data

Results flagged for a closer look

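Single libraries were compared with the other 4 of their group by the gap to the nearest library over the whole range of the group on the log2(FPKM + 1) scale, with Dixon's critical value of 0.71 for 5 libraries. Of 70 groups (35 genes in GDM and in CTR) 5 were beyond it, and chance gives about 1 in 20 groups.

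Igf2 was at 1218 FPKM in CTR2, the lowest CTR library, with a gap over range of 0.714 on that scale and 0.702, under the critical value, on FPKM. Grb10 was at 165.3 FPKM in GDM5, the highest GDM library. Snrpn was at 6.14 FPKM in GDM1, the lowest GDM library. Phlda2 was listed at 0 in GDM2 while the other GDM libraries had 0.166 to 0.20 FPKM, and it was at 0.121 FPKM in CTR3 while the other CTR libraries were listed at 0. At the level of Phlda2 a few fragments make this difference.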

How the results depend on the processing

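Of the 29 imprinted genes tested, 20 had the same call in every alternative. The count of higher genes was 12 to 16 over all alternatives and that of lower genes 2 to 5, with 5 after median ratio scaling, where the median log2 fold change was 0.15 in maternally and 0.00 in paternally expressed genes. The paternal median was 0.14 after quantile normalization, 0.23 without mitochondrially encoded genes, 0.17 to 0.29 when 1 library was left out (0.29 without GDM2), and 0.33 without GDM1 and GDM3. Peg3 was at -0.0016 after median ratio scaling. This scaling moved Peg3 by -0.19, from 0.19, and each of the 29 genes by -0.19 to -0.11. The difference in the log2 ratio of H19 to Igf2 (GDM minus CTR) was -0.51 with Gm49394 added. When 1 library was left out, the difference of Meg3 to Dlk1 ran from -0.87 to -0.61 and Igf2r to Airn from 0.17 to 0.35. Samples with the same replicate number did not deviate together (correlations of -0.0723 to -0.0191), so no pairing by number was seen. This cannot show that the numbers carry no shared handling. With the replicate block 15 genes were higher and 2 lower. Depth limits Dio3, Kcnq1ot1, Phlda2, Slc22a18, Ascl2 and Nap1l5, all under 1 FPKM.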
